A study of Mus musculus with 4 samples.

Results

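The genes described here are *Trp53*, which encodes the transcription factor p53, and 9 genes that p53 activates directly, *Mdm2*, *Ccng1*, *Phlda3*, *Cdkn1a*, *Zmat3*, *Bax*, *Bbc3*, *Trp53inp1* and *Perp*. They were picked by symbol, and all 10 were found among the 24347 gene rows of each sample. Mouse embryonic stem cells (mESCs) of strain 129/Ola, the line E14Tg2a.IV in the study's methods, had formed embryoid bodies (EBs), suspended aggregates in which mESCs differentiate, in serum medium from which LIF was withdrawn, and total RNA was sequenced at day 3. There were 2 WT samples and 2 samples from mESCs in which CRISPR/Cas9 had deleted the promoter of *Gm11549* (promoter KO), the gene of the micropeptide NEMEP, whose function in mesendoderm differentiation the study examined. Promoter KO clones had been grown from single sorted cells. The study calls the samples of a genotype biologically independent. The methods also use the names promoter-KO-1 and promoter-KO-2 where they list the guide oligonucleotides, without tying them to samples. Whether the samples promoter KO 1 and promoter KO 2 are separate clones is not stated, so the p-values measure the spread between these samples only.

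Expression was given in FPKM, the fragments of a gene per kilobase of its transcript, relative to all mapped fragments. Values by sample are given in the order of the sample numbers, 1 and then 2, within each genotype. The lowest values, which reflect single fragments, placed the depth at about 25300000 and 22600000 fragments for the WT samples and at 22300000 and 20500000 for promoter KO. Among the members the fewest fragments stood behind *Perp* in promoter KO 2, about 373, and the most behind *Bax* in promoter KO 1, about 14121. Differences were tested with limma on log2(FPKM + 1) over the 11941 genes that reached 1 FPKM in 2 or more of the 4 samples, and p-values were adjusted over all of them by the Benjamini-Hochberg method. The pseudocount of 1 makes changes of weakly expressed genes appear smaller. For a gene by itself, the smallest two-sided p of an exact permutation test of 2 samples against 2 is 0.333. All 10 members passed the filter, and all reached 1 FPKM in every sample. The targeted gene, *Gm11549*, was listed at 0.750 and 0.522 FPKM in WT EBs against 0 and 0.0659 in promoter KO EBs. It was below the filter and was not tested, and both promoter KO samples lay under both WT samples, as their labels say.

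The p53 protein is made and degraded continuously in unstressed cells, because its target Mdm2 marks it for destruction. When DNA damage or another stress blocks this loop, p53 accumulates without a need for more *Trp53* mRNA, and its target genes halt the cell cycle, repair DNA, alter metabolism or kill the cell. Mouse embryonic stem cells hold much p53 mRNA and protein, and in differentiating mESCs the p53 family is also known to induce Wnt ligands that promote mesendoderm formation.

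p53 binds a pair of adjacent short palindromes, the p53 half-sites. Because the 9 targets are defined by this binding, the windows from 250 bases before to 50 after each RefSeq start (GRCm38.p6) were searched for a pair of half-sites, 10 bases each and the same on both strands, with the central C and G of both kept. With at most 3 mismatches in the 20 bases and at most 1 base between the half-sites, a pair was found in 4 of the 6 targets that have a window, in *Trp53* itself, and in 3.27% of all 27025 genes with a window (2.82% of all 32851 windows). With at most 1 mismatch and no base between, a pair was found in 2 members, *Cdkn1a* and *Ccng1*, and in 0.0814% of all genes with a window (0.0670% of all windows). Their sequences before the annotated starts are shown because both genes were higher in promoter KO EBs, with the half-sites in capitals. That of *Cdkn1a* lies at chr17:29090729-29090975 on the plus strand and that of *Ccng1* at chr11:40755312-40755536 on the minus strand.
Cdkn1a: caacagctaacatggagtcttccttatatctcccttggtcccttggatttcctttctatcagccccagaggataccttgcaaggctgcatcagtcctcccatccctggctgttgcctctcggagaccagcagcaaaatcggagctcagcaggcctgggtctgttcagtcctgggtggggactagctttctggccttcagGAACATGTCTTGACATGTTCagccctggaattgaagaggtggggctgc
Ccng1: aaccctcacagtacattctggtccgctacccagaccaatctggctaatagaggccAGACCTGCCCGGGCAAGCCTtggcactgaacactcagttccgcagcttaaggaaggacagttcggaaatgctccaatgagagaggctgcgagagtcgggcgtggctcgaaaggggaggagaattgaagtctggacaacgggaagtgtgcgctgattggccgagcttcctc
The pair of *Cdkn1a*, at chr17:29090928-29090947, begins 51 bases before the RefSeq start of its window. That of *Ccng1*, at chr11:40755462-40755481, begins 195 bases before the start of its own. *Cdkn1a* has another RefSeq window further downstream, at chr17:29093519-29093818, in which no pair was found. The other 3 pairs, in *Bax* at chr7:45467079-45467099 on the minus strand, *Bbc3* at chr7:16309486-16309505 and *Trp53* at chr11:69580284-69580303, both on the plus strand, are shown with 4 bases on each side.
Bax: tcccAGGCAAGCTTtGAACTTGCGGcaat
Bbc3: ccgaCTGCAAGCCCCGACTTGTCCccag
Trp53: ggaaGGACTTGCCCTTACTTGTTAtggc
*Bax* has 1 base between the half-sites. *Bbc3* has further windows, at chr7:16310011-16310310 and chr7:16310181-16310480, and no pair was found in them. No pair was found in the windows of *Mdm2* and *Phlda3*, and *Zmat3*, *Trp53inp1* and *Perp* were not searched. Pairs that lie outside the windows, for example deeper in a gene, could not be found by this search. A match describes the letters only, and binding was not measured.

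Across the members, the promoter KO EBs had more mRNA of 5 p53 targets than the WT EBs, while *Trp53* mRNA differed by less than the spread between samples. At an adjusted p under 0.05, 5 of 10 members were higher in promoter KO, where 1.68% of all tested genes were, and 0 were lower, where 1.89% were. Those that rose were *Ccng1*, *Phlda3*, *Trp53inp1*, *Mdm2* and *Cdkn1a*. At an unadjusted p under 0.05, 7 were higher, where 15.0% of all tested genes were, and 0 were lower, where 15.6% were. The adjusted count was 3 without WT 1 (61 of all tested genes higher), 0 without WT 2, 0 without promoter KO 1 and 6 without promoter KO 2 (238 of all tested genes higher). No gene of the 11941 was called without WT 2 or without promoter KO 1, so each count of calls from the 4 samples became 0 in those fits, in which 7 members had an unadjusted p under 0.05, as 1875 and 2009 of all tested genes had. Both promoter KO samples exceeded both WT samples in 7 members, the same 5 with *Bax* and *Zmat3*, against 32.9% of all tested genes. No member had both promoter KO samples below both WT samples, against 32.4%. The genotypes overlapped in *Trp53*, *Bbc3* and *Perp*. The median log2 fold change was 0.63 for the members and 0.82 for the 9 targets, against 0.0042 for all tested genes. These are whole EBs, in which fewer cells of a type and less RNA per cell cannot be told apart.

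**Figure D1:**
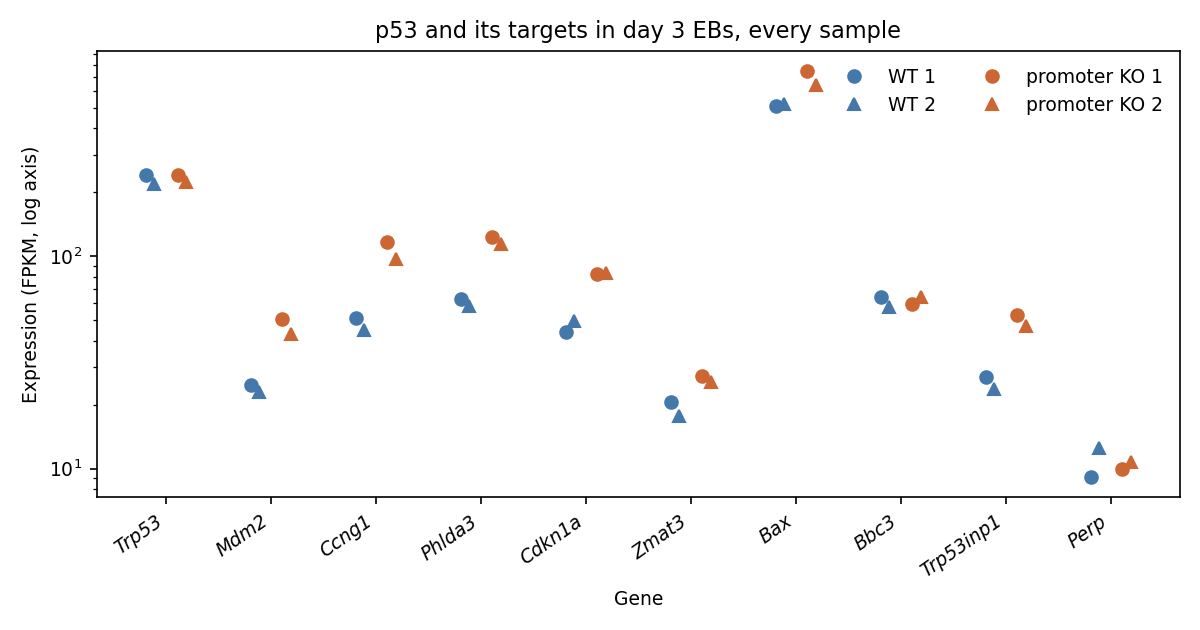
Expression of *Trp53* and its 9 targets in FPKM on a log axis, with 1 symbol per sample, blue for WT and orange for promoter KO, circles for samples numbered 1 and triangles for samples numbered 2. Both orange symbols lie above both blue ones in 7 genes, and the genotypes overlap in *Trp53*, *Bbc3* and *Perp*.

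*Trp53* (chr11:69580359-69591873, GENCODE M21 annotation of GRCm38) was measured at 241 and 218 FPKM in WT EBs against 242 and 224 in promoter KO EBs. The samples of each genotype spanned nearly the same range. The log2 fold change of promoter KO over WT was 0.02 (SE 0.09, 95% confidence interval -0.19 to 0.24, adjusted p = 0.881). A processed pseudogene, *Trp53-ps*, is nearly identical to *Trp53*, and how reads were shared between them is not given in the sources used here. The protein and its modifications, through which p53 is mainly regulated, were not measured.

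*Mdm2*, *Ccng1* and *Phlda3* encode regulators of signalling, and of these *Mdm2*, the ubiquitin ligase of p53 that restrains it, is at chr10:117688875-117710758. *Mdm2* was at 24.9 and 23.1 FPKM in WT EBs against 50.9 and 43.0 in promoter KO EBs. *Ccng1* (chr11:40748552-40755311), which encodes cyclin G1, a partner of a phosphatase that activates Mdm2, was at 51.1 and 45.0 FPKM in WT EBs against 116 and 96.8 in promoter KO EBs. *Phlda3* (chr1:135766119-135769136), which encodes an inhibitor of the kinase Akt, was at 63.0 and 58.3 FPKM in WT EBs against 124 and 114 in promoter KO EBs. In all 3 genes the lower promoter KO sample was well above the higher WT sample, and promoter KO 1 was above promoter KO 2. *Ccng1* rose by 1.13 on the log2 scale (SE 0.12, adjusted p = 0.0244), the largest difference among the members. *Phlda3* rose by 0.96 (SE 0.09, adjusted p = 0.0217) and *Mdm2* by 0.94 (SE 0.11, adjusted p = 0.0313).

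Among the targets that slow the cell cycle, *Cdkn1a* (chr17:29090976-29100727) encodes p21, an inhibitor of cyclin-dependent kinases and the best known p53 target. It was at 43.8 and 49.5 FPKM in WT EBs against 82.5 and 83.3 in promoter KO EBs. The promoter KO samples were closer to each other than the WT samples were, and *Cdkn1a* rose by 0.82 on the log2 scale (SE 0.09, adjusted p = 0.0280). An unclassified transcript, *AC167363.2*, overlaps *Cdkn1a* on the opposite strand, and the sources used here do not give the strand setting of the counting. *Zmat3* (chr3:32334792-32366014), which encodes an RNA-binding zinc finger protein with a part in tumour suppression, was at 20.6 and 17.6 FPKM in WT EBs against 27.2 and 25.7 in promoter KO EBs. The genotypes did not overlap, but the difference of 0.45 (SE 0.11) did not pass the test (adjusted p = 0.0721). *Zmat3* is the member on the chromosome of *Gm11549*, 4.15 megabases from it.

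The members that promote cell death are *Bax*, *Trp53inp1*, *Bbc3* and *Perp*. *Trp53inp1* (chr4:11156431-11174379), which encodes a stress-induced nuclear protein that promotes cell death and autophagy, was at 26.9 and 23.8 FPKM in WT EBs against 53.05 and 47.0 in promoter KO EBs. It rose by 0.95 on the log2 scale (SE 0.11, adjusted p = 0.0281). *Bax* (chr7:45461697-45466898), the pore-forming protein of the mitochondrial outer membrane, had the highest level of the members, with 508 and 521 FPKM in WT EBs against 745 and 643 in promoter KO EBs. All promoter KO values of *Bax* were above the WT values, and the difference of 0.43 (SE 0.09) did not pass the test (adjusted p = 0.0584). An annotated gene, *Gm45808*, overlaps *Bax* on the same strand, which makes its level less certain.

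*Bbc3* and *Perp* did not separate the genotypes. *Bbc3* (chr7:16308393-16318205), which encodes Puma, a trigger of mitochondrial cell death, was at 64.6 and 57.7 FPKM in WT EBs against 59.5 and 64.3 in promoter KO EBs. *Perp* (chr10:18845020-18857073), a membrane protein of desmosomes and cell death, had the lowest level, with 9.13 and 12.6 FPKM in WT EBs against 9.95 and 10.7 in promoter KO EBs. In both genes the promoter KO values lay between the WT values. The log2 fold change was 0.02 for *Bbc3* (95% confidence interval -0.22 to 0.25, adjusted p = 0.911) and -0.05 for *Perp* (95% confidence interval -0.46 to 0.36, adjusted p = 0.858). Under quantile normalization the value of *Bbc3* was -0.0010, and the interval of *Perp* was the widest of the members.

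**Figure D2:**
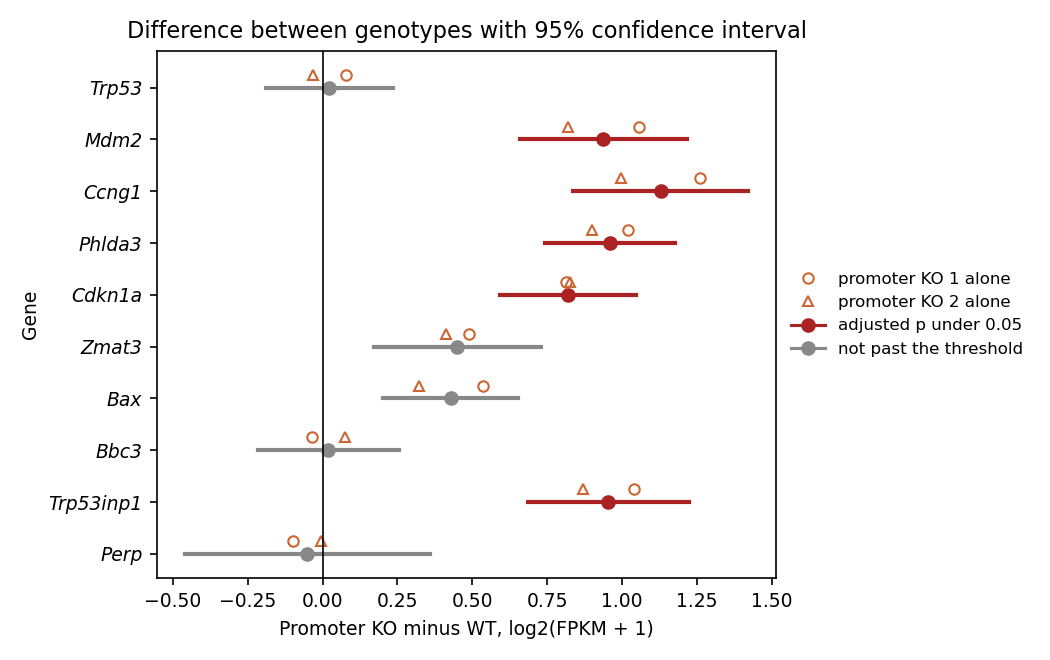
Difference of promoter KO from WT in log2(FPKM + 1) for each member, as the limma estimate (filled circle) with its 95% confidence interval (line), red at an adjusted p under 0.05 and grey otherwise. Open symbols give each promoter KO sample minus the WT mean, and in the 5 red genes both lie at 0.81 or above.

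Each promoter KO sample was also set against the WT samples alone, to see whether a single sample carried the difference. Promoter KO 1 lay above both WT samples in 8 members, against 41.4% of all tested genes, and promoter KO 2 in 7 members, against 42.0%. The additional member in promoter KO 1 was *Trp53*, by a small margin. In *Cdkn1a* the difference from the WT mean was 0.81 on the log2 scale in promoter KO 1 and 0.83 in promoter KO 2. In *Mdm2* it was 1.06 in promoter KO 1 and 0.82 in promoter KO 2. In *Ccng1* it was 1.26 in promoter KO 1 and 1.00 in promoter KO 2. Both samples therefore carried the higher target mRNA, and of the 7 members with separate genotypes 6 had the larger difference in promoter KO 1. The median over the members was 0.67 in promoter KO 1 and 0.61 in promoter KO 2, against -0.0076 and 0.013 over all tested genes. The 2 promoter KO samples share the WT samples, and whether they differ from each other was not tested.

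With a single promoter KO sample in the limma fit, the spread comes from the WT samples, and the lone sample is assumed to vary like them. Promoter KO 1 alone had 6 members called higher at an adjusted p under 0.05, the 5 above and *Bax* (adjusted p = 0.0469), where 1.99% of all tested genes were called higher. Promoter KO 2 alone had 0 members called, where 0% of all tested genes were, although 7 members had an unadjusted p under 0.05 in either sample, as 3646 of all tested genes had for promoter KO 1 and 2009 for promoter KO 2. The lowest adjusted p of a member in promoter KO 2 was 0.0968, for *Phlda3*. Testing all genes above 0, with no other filter, left 0 members called, and 0 of the 18215 genes then tested were called. Limma without the intensity trend left 1 member (55 of all tested genes higher). The 7 members had an unadjusted p under 0.05 in each of these fits.

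The members lie on 7 chromosomes, whose own median log2 fold changes ran from -0.04 to 0.03, and the 5 called members lie on 5 of them. On chromosome 11 *Ccng1* rose and *Trp53* overlapped, on chromosome 10 *Mdm2* rose and *Perp* overlapped, and on chromosome 7 the genotypes were apart in *Bax* and overlapped in *Bbc3*. The genes whose values over the 4 samples were most like those of *Cdkn1a*, by Euclidean distance of centred log2(FPKM + 1) among 8553 other genes with a mean of at least 5 FPKM, were *Crtap* (distance 0.0593), *Cltb* (0.117) and *Ctsd* (0.137). The nearest member was *Phlda3*, at a distance of 0.262 and rank 36 among these genes.

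A wider list of 59 p53 targets, the 9 members included, gave the same direction with exceptions. Of its genes 56 were tested, and 54 reached 1 FPKM in every sample. At an adjusted p under 0.05, 13 of the tested genes were higher in promoter KO and 1 was lower, against 1.68% and 1.89% of all tested genes, shares that also stand beside the counts of the lists that follow. Without WT 1, 5 of the wider list were higher, without promoter KO 2 15 were, and limma without the trend called 3. Leaving the members out, 8 of 47 tested genes were higher and 1 was lower. Both counts of higher genes include *Dram1*, which passed the filter only through promoter KO, and without it they are 12 of 55 and 7 of 46. The median log2 fold change of these 47 genes was 0.29, and the promoter KO samples were both above the WT samples in 31 and both below them in 6, against 32.9% and 32.4% of all tested genes. Among the named genes of the p53 lists, *Sfn*, *Ei24*, *Ddb2*, *Pcna*, *Trp73*, *Cdc20*, *Cdc25c* and *Mybl2* each share a nearly identical stretch with another annotated gene, so their levels are less certain. The list and its median describe the genes chosen and are not a test of the list.

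Among the 12 arrest genes, *Plk2*, a polo-like kinase of the stress response, was at 13.1 and 11.4 FPKM in WT EBs against 47.2 and 33.3 in promoter KO EBs, and it rose by 1.62 on the log2 scale (adjusted p = 0.0275). *Ckap2*, a spindle protein, rose by 0.81 (adjusted p = 0.0391) and *Gtse1*, a microtubule protein that moves p53 out of the nucleus, by 0.79 (adjusted p = 0.0423). With *Cdkn1a*, 4 genes of the arrest list were higher and 0 were lower. The name arrest is that of the list, which holds spindle and microtubule proteins as well, and whether cells slowed was not measured. *Sfn*, which encodes the checkpoint protein 14-3-3 sigma and is also an epithelial gene, went the other way, at 29.2 and 38.8 FPKM in WT EBs against 14.4 and 21.4 in promoter KO EBs, a difference of -0.90 that did not pass the test (adjusted p = 0.0675). *Psrc1*, a spindle protein, had the highest mean of the list, with 85.5 and 100.02 FPKM in WT EBs against 118 and 103 in promoter KO EBs. All 6 genes of the feedback list were tested, and the genes called were *Mdm2*, *Ccng1* and *Phlda3*, of which *Phlda3* acts on Akt and is not known to restrain p53.

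Of the 14 cell death genes 13 were tested, and 5 were higher, the member *Trp53inp1* among them, and 0 were lower. *Eda2r*, a death receptor of the TNF receptor family on chromosome X, was at 6.63 and 5.16 FPKM in WT EBs against 17.7 and 14.9 in promoter KO EBs, and it rose by 1.33 (adjusted p = 0.0305). *Pidd1*, the scaffold of the caspase-2 complex, rose by 0.79 (adjusted p = 0.0493), *Aen*, an apoptosis-enhancing nuclease, by 0.61 (adjusted p = 0.0422), and *Ei24*, a protein of the endoplasmic reticulum, by 0.51 (adjusted p = 0.0422). In each of these 4 genes both promoter KO samples were above both WT samples.

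Among the DNA repair targets, 6 of 7 genes were tested, 0 passed the test in either direction with limma, 2 were higher and 1 was lower at an unadjusted p under 0.05 (15.0% and 15.6% of all tested genes), and the median log2 fold change was -0.02. *Polk*, a translesion polymerase, had a difference of 0.57 (adjusted p = 0.0674), *Ercc5*, an excision repair nuclease, 0.28 (adjusted p = 0.145), and *Ddb2*, a sensor of ultraviolet damage, -0.41 (adjusted p = 0.134). *Pcna*, the sliding clamp of replication and the most abundant of the list, was at 387 and 328 FPKM in WT EBs against 378 and 365 in promoter KO EBs, within the WT range.

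The 17 metabolic, redox and autophagy targets were all tested, and 1 rose and 1 fell. *Ddit4*, an inhibitor of the growth kinase mTORC1 that hypoxia also induces, was at 489 and 466 FPKM in WT EBs against 139 and 232 in promoter KO EBs, and it fell by 1.41 on the log2 scale (adjusted p = 0.0422). *Dram1*, a lysosomal protein of autophagy, was at 0.711 and 0.330 FPKM in WT EBs against 2.24 and 3.11 in promoter KO EBs, and it rose by 1.27 (adjusted p = 0.0423). This is the gene that only its promoter KO values brought past the filter. *Sesn2*, a stress-induced inhibitor of mTORC1, had a difference of 0.70 just short of the threshold (adjusted p = 0.0506), and *Rps27l*, a ribosomal protein and the most abundant gene of the list, 0.25 (adjusted p = 0.0842). Of 3 noncoding targets 2 were tested and 0 passed, with *Neat1* at 18.1 and 14.4 FPKM in WT EBs against 15.3 and 14.2 in promoter KO EBs.

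**Figure D3:**
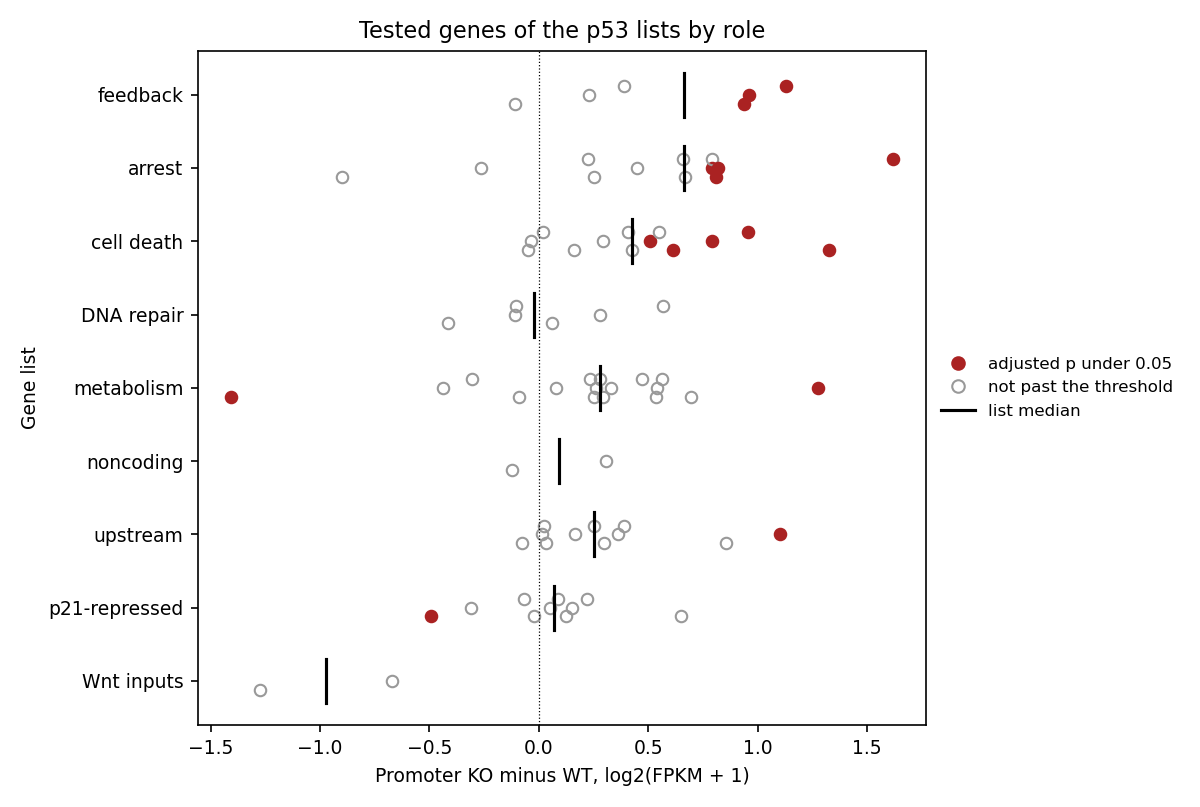
Difference of promoter KO from WT in log2(FPKM + 1) for the tested genes of each p53 list, filled red at an adjusted p under 0.05, with a black bar at the list median. The feedback list, which includes *Phlda3*, and the arrest list have medians of 0.66, and the DNA repair list has a median of -0.02.

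Of the p53 family and its regulators, a list that includes the member *Trp53*, 11 of 12 genes were tested, and 1 was higher and 0 were lower. *Trp73*, which encodes the p53 relative p73, was at 2.84 and 2.24 FPKM in WT EBs against 7.75 and 5.53 in promoter KO EBs, and it rose by 1.10 (adjusted p = 0.0467). *Cdkn2a*, which encodes the Mdm2 inhibitor Arf and, from another promoter, p16, whose transcripts the gene value does not tell apart, had a difference of 0.86 (adjusted p = 0.0652), and *Mdm4*, a partner of Mdm2 that holds p53 inactive, 0.39 (adjusted p = 0.0879). The genotypes did not overlap in these 3 genes. The median of the list was 0.25.

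Among the mitotic genes that p21 lowers through the DREAM complex, all 10 were tested, and 1 was lower and 0 were higher, with a median of 0.07. *Ccnb2*, a mitotic cyclin, was at 98.7 and 105 FPKM in WT EBs against 68.8 and 75.4 in promoter KO EBs, and it fell by 0.49 (adjusted p = 0.0472). *Cdc25c*, a phosphatase that starts mitosis, had a difference of -0.31 (adjusted p = 0.164), and *Mybl2*, a transcription factor of dividing cells, 0.65 (adjusted p = 0.0879). *Cdc20*, the most abundant of the list, was at 288 and 298 FPKM in WT EBs against 338 and 300.1 in promoter KO EBs.

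*Wnt3*, a Wnt ligand, was at 17.9 and 24.7 FPKM in WT EBs against 6.32 and 10.3 in promoter KO EBs, a difference of -1.28 (adjusted p = 0.0511). *Fzd1*, a Wnt receptor, was at 3.38 and 4.13 FPKM in WT EBs against 1.54 and 2.48 in promoter KO EBs, a difference of -0.67 (adjusted p = 0.0957). Of these Wnt genes, listed as induced by the p53 family, neither passed the test.

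The labels call all samples mesendoderm, and the mesendoderm markers were present in all samples but moved with genotype. The sum of 6 markers, of which *T* had the highest mean over the samples and *Eomes* the highest value in promoter KO 1, was 701 and 883 FPKM in WT EBs against 140 and 297 in promoter KO EBs. At an adjusted p under 0.05, 3 were lower and 0 were higher (1.89% and 1.68% of all tested genes), and all 6 were lower in both promoter KO samples than in both WT samples. *Mesp1* fell, with 27.0 and 101 FPKM in WT EBs against 0.759 and 4.24 in promoter KO EBs (adjusted p = 0.0467). The sum of 7 pluripotency markers, led by *Pou5f1*, was 1750.1 and 1443 FPKM in WT EBs against 1915 and 1824 in promoter KO EBs, and 0 of 7 passed the test. At an unadjusted p under 0.05, 4 were higher, without *Pou5f1*, and 1, *Nanog*, was lower, against 15.0% and 15.6% of all tested genes. Both promoter KO samples were above both WT samples in 5 of the 7 markers, and the median log2 fold change of all 7 was 0.76. The sum of 9 extraembryonic endoderm markers was 24.3 and 33.1 FPKM in WT EBs against 76.7 and 99.0 in promoter KO EBs, and 6 were higher and 0 were lower. Of these 6, *Sox7* and *Cubn* were under 1 FPKM in both WT samples and passed the filter only through their promoter KO values. Only a higher value in promoter KO thus brought them into the test. *Ttr*, at 2.18 and 0.996 FPKM in WT EBs, also needed its promoter KO values of 8.14 and 6.32 to pass the filter. The others of the 6, *Lama1*, *Amn* and *Dab2*, reached 1 FPKM in both WT samples. *Gata4* had the highest mean of the list over the samples, but the genotypes overlapped in it (adjusted p = 0.842), and in promoter KO *Lama1*, *Amn* and *Dab2* were above it. The sum of 6 epithelial markers, of which *Cldn6* had the highest mean and *Cdh1* the highest value in promoter KO 1, was 535 and 629 FPKM in WT EBs against 503 and 605 in promoter KO EBs, and 0 passed the test. At an unadjusted p under 0.05, 3 were lower, *Krt8*, *Krt18* and *Dsp*, each with both promoter KO samples below both WT samples, and 0 were higher. In 2 others both promoter KO samples were above.

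Markers of other cells were scarce, apart from *Thy1* of the fibroblast list. It was at 11.3 and 10.2 FPKM in WT EBs against 16.1 and 9.82 in promoter KO EBs. The 4 neuroectoderm markers, *Sox1*, *Pax6*, *Zic1* and *Neurog2*, were each under 1 FPKM in all samples and summed to 0.512 and 0.402 FPKM in WT EBs against 1.78 and 1.49 in promoter KO EBs. The 4 blood markers were each under 1 FPKM as well, with *Gata1* highest by its mean and *Hba-a1* in promoter KO 2, and summed to 0.458 and 1.00 FPKM in WT EBs against 0.282 and 1.13 in promoter KO EBs. The 5 fibroblast markers, led by *Thy1*, summed to 12.8 and 12.3 FPKM in WT EBs against 17.3 and 10.6 in promoter KO EBs, and *Postn* was listed at 0 in each. Of the 2 that were tested 0 passed. *Col1a1* was lower at an unadjusted p under 0.05, with both promoter KO samples below both WT samples. It was at 1.04 and 1.25 FPKM in WT EBs against 0.649 and 0.404 in promoter KO EBs. Only its WT values thus brought it past the filter. The mesendoderm and extraembryonic endoderm markers thus moved with genotype beside the p53 targets, and 5 of the pluripotency markers were above WT and 3 of the epithelial markers below it in both promoter KO samples without passing the test. The neuroectoderm markers *Sox1*, *Pax6* and *Zic1*, which were too low to be tested, were also above WT in both promoter KO samples. *Neurog2* was at 0.0401 and 0 FPKM in WT EBs against 0.0458 and 0.0494 in promoter KO EBs, too near 0 to set the genotypes apart. The fibroblast marker *Col1a1*, which passed the filter only through WT, was below WT, and the genotypes overlapped in *Thy1*. The part of these markers in the higher target mRNA was not tested.

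**Figure D4:**
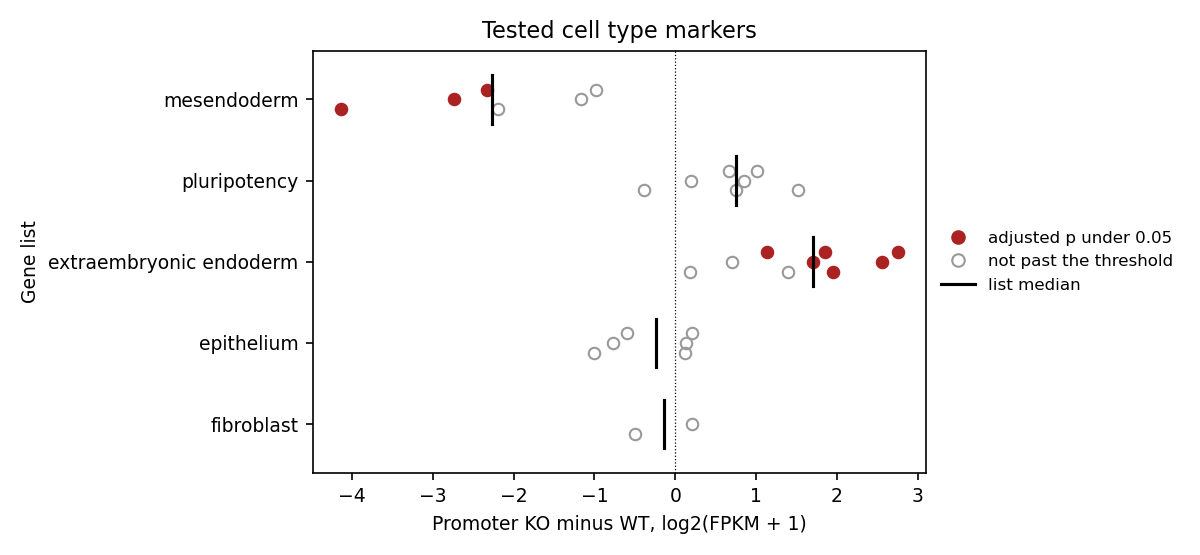
Difference of promoter KO from WT in log2(FPKM + 1) for the tested cell type markers, filled red at an adjusted p under 0.05, with a black bar at the list median. The median is -2.26 for mesendoderm markers and 1.70 for extraembryonic endoderm markers. Of the latter, *Sox7* and *Cubn* were under 1 FPKM in both WT samples, and *Afp* and *Ttr* in WT 2. These genes passed the filter only with their promoter KO values.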

How the data were processed

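The deposited values are FPKM in 1 table per sample, estimated by the authors with Cufflinks. Their methods name TopHat and call the values RPKM, while the processing notes in the labels name HISAT2 2.1.0, Cufflinks, Cuffnorm and mm10. The tables name no unit. The authors had thus scaled for transcript length and library size. Genes at 1 FPKM or more in 2 or more samples were tested with limma 3.58.1 (R 4.3.3, lmFit and eBayes with a trend) on log2(FPKM + 1) with genotype in the model and Benjamini-Hochberg adjustment over all tested genes. The procedure was tested on simulated data. The depth was estimated at an assumed fragment length of 250 bases, where the single-fragment peak was sharpest. Near-identical copies had at least 95% identity over at least 200 bases (BLAST 2.17.0). The limits on mismatches and spacing of half-sites were chosen after other limits had been tried. Python 3.11.15, numpy 2.4.6, pandas 2.3.3 and matplotlib 3.10.9 were used.

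Named genes are the members, *Gm11549*, each gene of the p53 lists with an adjusted p under 0.05, up to 3 per list with the largest change among tested genes whose genotypes do not overlap, the most abundant per list, and the 3 most like *Cdkn1a*. *Mesp1* and the markers named singly for their values were chosen after these were seen. The members and lists, among them marker lists for mesendoderm, pluripotency, extraembryonic endoderm, epithelium, neuroectoderm, fibroblasts and blood, were chosen with earlier results of these data known. Alternatives were another pseudocount, other filters, no trend, centring, quantile normalization, a replicate block, fold thresholds, and leaving out each sample.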

Additional observations from a re-analysis of the deposited data

How the results depend on the processing

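The labels number the samples 1 and 2 in both genotypes, but same-numbered samples did not deviate together (correlation across genes of 0.0348). With the number as a block, 6 members were higher instead of 5 and 0 were lower, and of the wider list 17 were higher instead of 13 and 2 were lower instead of 1. Of all 11941 tested genes, 535 were then higher instead of 201 and 667 lower instead of 226, so the counts grew beyond the p53 genes too.

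Testing all genes above 0 gave 0 members higher, and 0 wider targets higher and 0 lower. Of the 18215 genes then tested 0 were higher and 0 lower, and 4059 had an unadjusted p under 0.05. Limma without the trend gave 1 member higher, and 3 wider targets higher and 0 lower, with 55 of all tested genes higher and 27 lower. A fold change of 2 with an unadjusted p under 0.05 gave 1 member higher and 0 lower, and 4 wider targets higher and 1 lower, with 167 of all tested genes higher and 195 lower. For the filter and the trend the cause was not tested. A pseudocount of 0.1, a filter at a mean of 5 FPKM, centring and quantile normalization each kept 5 members higher and 0 lower. So did a filter at 1 FPKM in all 4 samples, which was chosen after seeing the data. Of all tested genes, 95 to 185 were higher and 108 to 245 lower in these fits.

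Without each sample in turn, 0 to 6 members were higher, 0 to 15 wider targets were higher and 0 to 1 lower, and of all tested genes 0 to 238 were higher and 0 to 248 lower. The log2 fold change then ran from -0.050 to 0.096 for *Trp53*, from -0.062 to 0.0998 for *Bbc3* and from -0.26 to 0.16 for *Perp*, and it was -0.0010 for *Bbc3* under quantile normalization. In the other 7 members no alternative turned the direction. The counts for each promoter KO sample alone were within 1 member under the other pseudocount, centring and quantile normalization.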
